A study of Mus musculus with 71 samples.

Results

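The genes described here were 10 regulators of limb bud patterning, Msx1, Msx2, Sp8, Sp9, Fgf8, En1, Lmx1b, Hand2, Shh and Pitx1, read through the chromatin loops at their promoters in mouse synovial sarcoma (SyS). A loop belonged to a gene when an anchor of that loop reached within 2 kb of any of its transcription start sites (TSSs) in the GENCODE annotation. By this rule 28 loops of the 24244 in the merged list were found, at 7 of the 10 genes. The list came from H3K27ac HiChIP of 2 hSS2 tumors, which express human SS18::SSX2. In the study's account such tumors were started in the hindlimb by injecting TATCre protein at 8 days of life. On that account recombination was set by the injected site and not by a cell type promoter. The titles of the 2 HiChIP libraries do not name the Cre, and some ChIP titles of the series carry MyF5. The HiChIP tumors were taken apart to cell suspensions with no sort described, and there was no normal limb or other control for this assay. HiChIP ligates DNA ends that lie close together in the nucleus and then captures those on chromatin with a chosen mark. H3K27ac marks active promoters and enhancers, so a pair of regions without this mark is captured poorly.

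Limb buds grow out under signals from several centres. The apical ectodermal ridge at the distal edge secretes FGFs, among them Fgf8, and the zinc finger factors Sp8 and Sp9 act in that ectoderm upstream of Fgf8. Shh is the signal of the posterior margin and Hand2 acts upstream of it, whereas Wnt7a, En1 and Lmx1b divide the bud into dorsal and ventral sides. Msx1 and Msx2 are homeobox repressors that respond to BMP signals, and Pitx1 gives the hindlimb its identity. Several of these genes are regulated in the embryo by enhancers far from the promoter, the limb enhancer of Shh being the best known.

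Promoters and distal anchors of the loops with the most tags are shown first, where a tag is a paired-end read that joins the anchors of a loop. For the 3 genes whose loops had the highest tag counts, Msx1, Msx2 and Sp9, the 250 bases upstream of the first TSS are given. For Msx2 and Sp9 the central 250 bases of the distal anchor with the most tags follow. Both of these anchors belong to short loops, with counts near the fewest of any loop of like span, as described below. All come from GRCm38, the assembly called mm10, and run 5′ to 3′ on the strand named. Capitals mark CpG dinucleotides, which are dense in the promoters of many developmental regulators.
The Msx1 promoter lies at chr5:37824584-37824833 on the minus strand and the Msx2 promoter at chr13:53473075-53473324, also on the minus strand. The Sp9 promoter lies at chr2:73271675-73271924 on the plus strand. None of the 3 windows overlaps an annotated gene.
Msx1 promoter: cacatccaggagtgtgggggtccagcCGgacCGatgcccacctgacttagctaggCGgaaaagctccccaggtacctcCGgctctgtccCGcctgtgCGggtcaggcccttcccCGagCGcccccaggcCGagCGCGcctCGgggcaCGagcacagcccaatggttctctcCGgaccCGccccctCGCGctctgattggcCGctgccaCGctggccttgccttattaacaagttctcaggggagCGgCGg
Msx2 promoter: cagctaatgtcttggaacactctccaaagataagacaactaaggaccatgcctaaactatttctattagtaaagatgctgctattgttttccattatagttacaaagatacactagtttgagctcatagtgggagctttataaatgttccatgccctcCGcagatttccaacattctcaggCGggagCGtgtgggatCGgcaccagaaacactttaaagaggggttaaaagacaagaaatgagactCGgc
Sp9 promoter: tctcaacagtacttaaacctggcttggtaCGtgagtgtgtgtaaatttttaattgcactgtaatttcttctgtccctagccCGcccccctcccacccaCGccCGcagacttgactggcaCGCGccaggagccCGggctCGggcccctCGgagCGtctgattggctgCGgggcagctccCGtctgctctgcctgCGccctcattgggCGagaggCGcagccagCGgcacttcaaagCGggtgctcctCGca
These windows hold 21 CpGs for Msx1, 5 for Msx2 and 18 for Sp9, and the median over 21911 protein-coding genes was 8. The GC box GGGCGG, searched on both strands, occurs 1 time each in the Msx1 and Sp9 windows and is found in 39% of all such windows. The homeodomain core TAATTA, which reads the same on both strands, is absent from all 3 and present in 4.99% of windows. The distal anchors are given on the plus strand. The Msx2 anchor centre, chr13:53462262-53462511, is intergenic, and the Sp9 anchor centre, chr2:73278893-73279142, lies in an intron of Sp9.
Msx2 distal anchor: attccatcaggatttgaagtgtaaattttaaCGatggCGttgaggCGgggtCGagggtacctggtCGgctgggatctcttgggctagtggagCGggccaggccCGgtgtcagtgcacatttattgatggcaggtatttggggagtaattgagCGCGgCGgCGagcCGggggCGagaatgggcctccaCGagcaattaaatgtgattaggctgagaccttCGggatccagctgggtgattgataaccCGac
Sp9 distal anchor: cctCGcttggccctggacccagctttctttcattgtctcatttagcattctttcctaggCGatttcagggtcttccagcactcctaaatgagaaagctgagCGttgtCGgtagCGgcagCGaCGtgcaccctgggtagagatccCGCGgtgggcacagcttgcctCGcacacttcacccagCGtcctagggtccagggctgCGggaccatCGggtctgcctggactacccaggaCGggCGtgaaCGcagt
The Msx2 and Sp9 anchor centres hold 16 CpGs each, and the median over the 16864 distinct anchors was 12. For Msx2 the distal anchor was thus richer in CpGs than the 250 bases upstream of its own first TSS, while for Sp9 the order was the opposite.

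Tags were few and unevenly spread over the 10 genes. Their 28 loops carried 77 tags of the 41574 in the list, and the 3 genes Sp9, Msx2 and Msx1 held 68 of them. The sum of the tags of a gene's loops is called its loop score. Sp9 scored 30 tags over 8 loops (95% Poisson interval, 20.2 to 42.8), Msx2 scored 20 over 8 loops (12.2 to 30.9) and Msx1 scored 18 over 4 loops (10.7 to 28.4). These 3 intervals overlapped, so the order of Sp9, Msx2 and Msx1 was not resolved by their counts. Sp8 and Lmx1b scored 3 tags each (0.619 to 8.77), Hand2 scored 2 (0.242 to 7.22) and Fgf8 scored 1 (0.0253 to 5.57), and these 4 intervals overlapped as well. En1, Shh and Pitx1 had no listed loop (0 to 3.69), and on a one-sided limit a count of 0 allows up to 3 listed tags. Contacts that missed the threshold of the loop caller are not in the list, so these genes may hold more tags than that. All intervals cover counting error only, because the merged list holds no values per tumor, and they leave that threshold out of account.

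Against all genes, 7 of 10 looped genes compares with 23.9% of the 55341 GENCODE genes and with 45.8% of the 21924 protein-coding genes. Of the 10 genes, Sp9, Msx2 and Msx1 reached a loop score of 10 or more, as did 10.9% of protein-coding genes. The median score of the 10035 looped protein-coding genes was 4 tags. Sp9 ranked 552 among the protein-coding genes, Msx2 ranked 982 and Msx1 ranked 1124, which placed them above 94.2%, 89.5% and 88% of the looped ones. The highest score of any gene was 385. No test was possible on a single merged list, and these shares are descriptions.

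**Figure D1:**
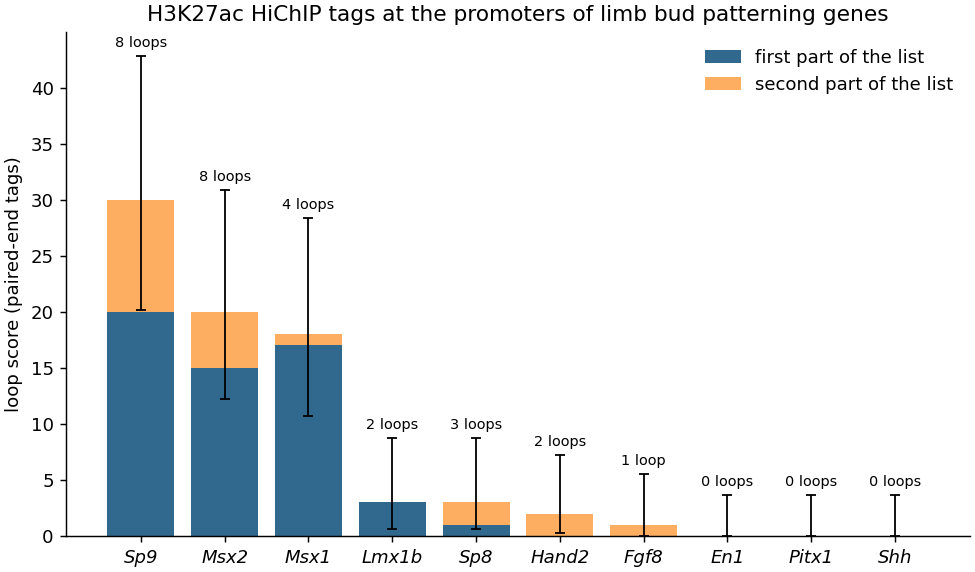
Loop score (paired-end tags, linear axis from 0) of each of the 10 genes, with bars stacked by the part of the list that the tags came from, error bars giving the 95% Poisson interval and the number of loops above. Sp9, Msx2 and Msx1 stand at 30, 20 and 18 tags, and the other 7 genes at 3 or fewer.

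The rows of the list formed 2 blocks that were sorted one after the other, called its first and second part here, and neither could be assigned to a tumor. The first held 13683 loops and 28657 tags, the second 10561 loops and 12917 tags. Msx1 had 17 of its 18 tags in the first part and Msx2 had 15 of 20, whereas Sp9 had 20 in the first and 10 in the second. Over all 10 genes 72.7% of the tags came from the first part, close to the 68.9% of the whole list. Lmx1b had tags in the first part alone, Hand2 and Fgf8 in the second alone, and Sp8 had 1 and 2. With 3 tags or fewer per gene, the depth could not show a difference between the parts for these 4 genes.

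Msx1 (chr5:37820485-37824583, minus strand) had the strongest loop of the set. Its promoter anchor, chr5:37822229-37825261, joined an anchor 71.3 kb upstream with 14 tags (FDR 5.54e-05, the false discovery rate given by the loop caller). That anchor overlaps the TSS and an exon of the noncoding gene Gm20052. Of the 59 loops of the first part whose span was within 10% of this one, 93.2% had fewer tags and the median was 8. The other 3 loops of Msx1 also ran upstream and were weak. The anchor at Stx18, which encodes a syntaxin, was reached over 215.3 kb with 2 tags. An anchor at the promoters of Lyar and Zbtb49, a nucleolar protein and a zinc finger protein, was reached over 396.7 kb with 1 tag in each part of the list. No loop of Msx1 ran downstream, and all of its distal anchors lay at the TSS of another gene.

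Msx2 (chr13:53466884-53473074, minus strand) was joined most often to an intergenic anchor 9.87 kb downstream, at chr13:53461402-53463370, with 9 tags (FDR 0.0367). Short loops carried many tags throughout the list, and 9 was the lowest count among the 50 loops of the first part of like span, whose median was 11.5. The loop to Nfil3, a bZIP transcription factor gene, spanned 491.5 kb and had 3 tags (FDR 2.52e-05), more than 95.6% of 1567 loops of like span. In the second part Msx2 was joined over 1119 kb to the shared promoter region of Higd2a and Nop16 with 2 tags (FDR 0.000204), more than 98.8% of 503 like loops. The second part also held a loop of 2 tags over 305.7 kb to the predicted gene Gm48548 (FDR 0.000597). Single tags joined Msx2 to Gadd45g, a growth arrest and DNA damage gene, over 1625 kb, to Prelid1 and Rab24 over 1850 kb, and to a pair of intergenic anchors over 1249 kb and 1552 kb. Neither part held a loop of Msx2 that was found in the other.

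Sp9 (chr2:73271925-73284706, plus strand) had its highest counts close to the promoter. The anchor inside the gene, chr2:73276627-73281408, was joined to the promoter with 10 tags over 5.49 kb in the first part and with 4 tags over 6.19 kb in the second. A second short loop of 4 tags ran 8.50 kb upstream to an intergenic anchor, in the second part alone. The Ola1 promoter, of a gene for an Obg-like ATPase, was reached over 59.5 kb with 7 tags (FDR 0.0355), the lowest count among 63 loops of like span. The anchor over Sp3 and its antisense partner Sp3os was reached in both parts, with 2 tags over 293.5 kb and 1 tag over 293 kb. Sp3 encodes a GC box binding factor of the same zinc finger family. Single tags joined Sp9 to Cdca7 over 796.4 kb and, over 1428 kb, to an anchor that overlaps an exon of Hoxd9 and the TSS of Gm44463. The 3 loops of Sp9 under 20 kb lay at or 1 tag above the fewest of any loop of like span in their part.

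The other looped genes rested on 1 or 2 tags per loop. Sp8 (chr12:118846329-118852576, plus strand) was joined upstream to Rapgef5 over 1158 kb, to D230030E09Rik over 319.7 kb and to an intergenic anchor over 285.2 kb, with 1 tag each. Fgf8 (chr19:45736798-45742915, minus strand) had a single tag over 516.6 kb to an intergenic anchor that lies 9.71 kb from the TSS of Lbx1, a homeobox gene of migrating muscle precursors. Lmx1b (chr2:33560965-33640511, minus strand) was joined to Zbtb34 over 211.1 kb with 2 tags, and over 673.9 kb with 1 tag to an anchor 2.73 kb from Snora65. Hand2 (chr8:57320983-57324633, plus strand) had a tag to Cep44 and Fbxo8 over 769.5 kb and another to an intron of Galnt7, a glycosyltransferase gene, over 248.1 kb. The promoter anchors of Lmx1b and Hand2 also reach the TSSs of the antisense genes C130021I20Rik and Hand2os1, and the loops cannot be told apart between them.

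**Figure D2:**
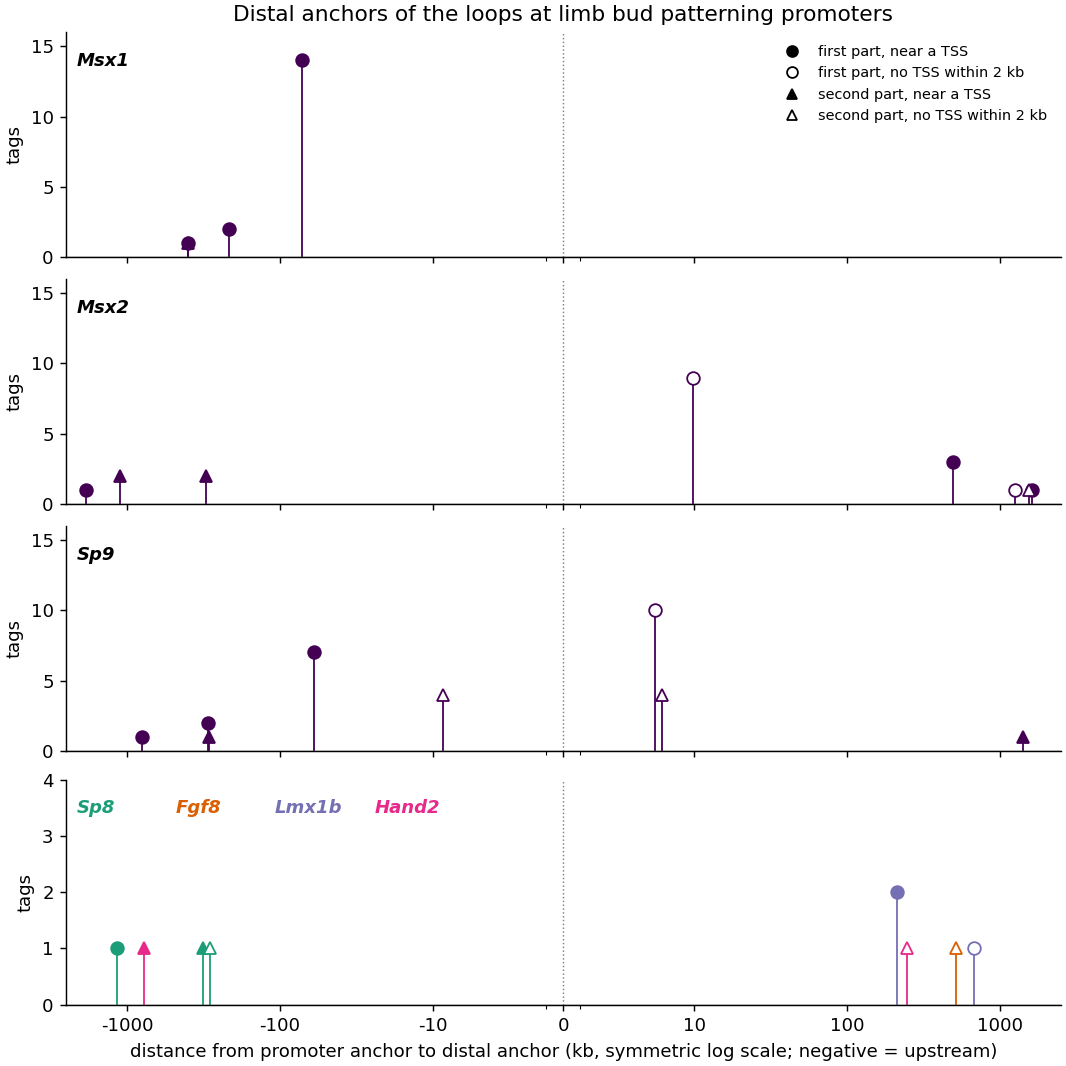
Tags of each loop (vertical axis, from 0) against the distance of its distal anchor from the promoter anchor (kb, symmetric log scale, negative values upstream of the gene), for Msx1, Msx2, Sp9 and the other 4 looped genes. Filled symbols are anchors near the TSS of another gene, circles the first and triangles the second part of the list. The counts of 4 or more lie within 100 kb of the promoter, and the Msx1 point at 396.7 kb stands for 1 tag in each part.

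Spans of the 28 loops ran from 5.49 kb to 1850 kb with a median of 358.2 kb, and the median over the whole list was 500.3 kb. The 6 loops under 100 kb carried 48 tags, which is 62.3% of the tags of the 10 genes, while 28.8% of the tags of all looped promoters came from loops under 100 kb. The 7 loops over 1 Mb carried 8 tags. Single-tag loops were 16 of 28, or 57.1% (Wilson 95% interval, 39.1 to 73.5), and were 78% of all loops in the list. The lowest tag count listed varied with span. No single-tag loop of the first part was shorter than 344.2 kb, and none of the second part was shorter than 108.8 kb. Compared with loops of their own part whose span was within 10%, 23 of the 28 loops, or 82.1% (64.4 to 92.1), had the fewest tags of any loop listed, and over the whole list 83.2% did. A further 3 lay 1 tag above that minimum. The remaining 2 were Msx1 to Gm20052, with 14 tags against a minimum of 6, and Msx2 to Nfil3, with 3 against 1.

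**Figure D3:**
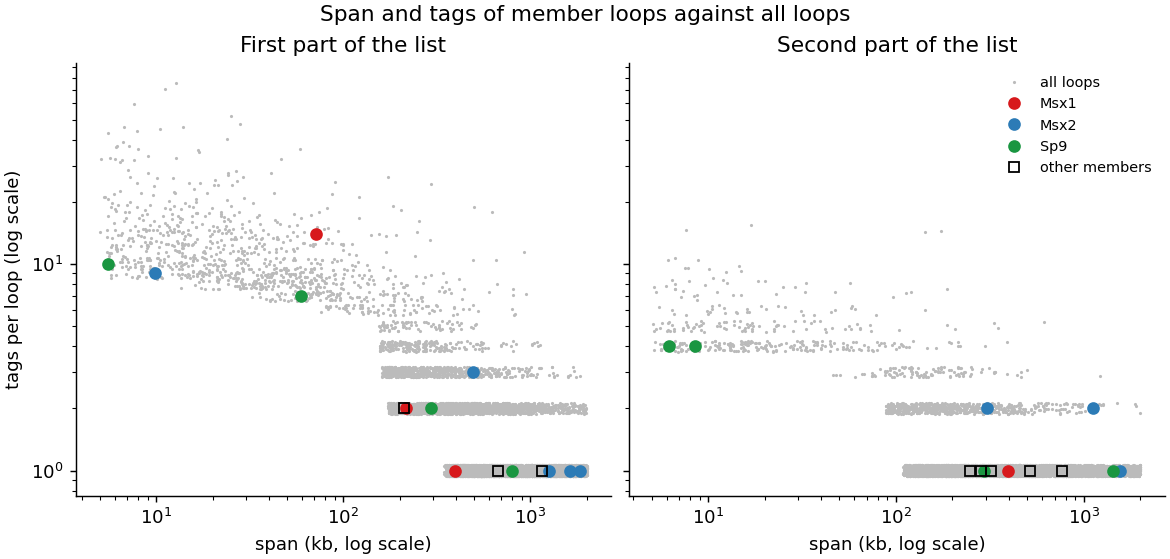
Tags per loop against span (kb), both on log scales, in the first and second part of the list. Grey points are all loops, shifted slightly in height so that equal counts can be seen, colored points Msx1, Msx2 and Sp9, and open squares the other looped genes. Most colored points lie on the lower edge of the grey cloud, and Msx1 at 71.3 kb with 14 tags lies well above it.

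Distal ends of the loops lay both at other genes and away from them. Of the 26 distinct distal anchors, 16 reached the TSS of another gene, or 61.5% (42.5 to 77.6), compared with 78.5% over all looped promoters. The other 10 were far from every TSS other than that of the looped gene, 7 of them intergenic, 2 overlapping anchors within Sp9 itself and 1 in Galnt7.

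Loops found in both parts of the list, with both anchors overlapping, were 6 of 28, or 21.4%, against 7.34% of all loops. They are 3 contacts counted from either part, Msx1 with Lyar and Zbtb49, Sp9 with Sp3, and the Sp9 promoter with the Sp9 gene body. The 6 loops are therefore not independent, and no interval is given for this share. Short loops recurred more often in the list as a whole, at 26.9% under 20 kb and 3% from 1 to 2 Mb. Between 200 and 500 kb 4 of the 11 loops recurred, and the share over all loops of that span was 10.1%. These were Msx1 with Lyar and Zbtb49 and Sp9 with Sp3, each counted from either part. The 14 tags of Msx1 with Gm20052 and the 7 tags of Sp9 with Ola1 had no counterpart in the second part.

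The anchors beside the promoters were then followed, a step chosen after the values were seen. At Sp9 the other anchors within 10 kb of the gene held more tags to Sp3 and Cdca7 than the promoter anchor did. The gene body anchor was joined to Sp3 with 6 tags over 299 kb in the first part (FDR 7e-10) and with 4 tags over 299.2 kb in the second (FDR 1.67e-08). Among loops of like span 96.9% and 99.9% had fewer tags. Together with the upstream anchor, these anchors held 14 tags to Sp3 in 4 loops, 8 in the first part and 6 in the second, compared with 3 tags from the promoter anchor. The gene body anchor also reached Cdca7, a MYC target gene, with 4 tags over 801.9 kb (FDR 2.36e-08, above 99.3% of loops of like span) and Hoxd13, a regulator of digits, with 1 tag over 1390 kb. The same Sp3 anchor was joined to the Ola1 promoter with 2 tags in the first and 3 in the second part, and to the promoters of Cir1 and Scrn3, 39.6 kb from Sp9, with 3 tags. Contacts with Sp3 were therefore spread over neighboring promoters as well as the Sp9 gene.

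The intergenic anchor downstream of Msx2 was joined to some of the distant genes that the Msx2 promoter reached. It reached Nfil3 over 481.6 kb with 2 tags and Gadd45g over 1615 kb with 2 tags, where the promoter had 3 and 1. It was further joined to Sfxn1, a mitochondrial serine transporter gene, with 2 tags over 610.3 kb (FDR 0.00104). The Gm20052 anchor of Msx1 had single tags to Evc, a gene of Hedgehog signaling at the cilium, over 576 kb and to Wdr1 over 666 kb. Upstream of Sp8, an anchor 8.36 kb from the TSS was joined with 2 tags over 535.5 kb to Sp4, a related zinc finger gene (FDR 0.00151).

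En1, Shh and Pitx1 were not reached by a loop, and the anchors around them were counted. The nearest anchor lay 336 kb from En1 (chr1:120602418-120607992, plus strand) at Steap3, 394 kb from Shh (chr5:28456815-28467256, minus strand) at Insig1 and Gm26608, and 102 kb from Pitx1 (chr13:55825051-55836192, minus strand) at Pcbd2. No anchor lay within 100 kb of any of the 3. Within 500 kb there were 2 anchors around En1, 1 around Shh and 25 around Pitx1. Around the looped genes there were from 7, at Msx1 and Hand2, to 30, at Fgf8, their own promoter anchors included. No values over all genes are given for comparison. Loops passed over each gene without touching it, 3 over En1, 1 over Shh and 9 over Pitx1. The sites of the enzyme MboI limit where ligation can occur. Within 2 kb of the first TSS there were 10 at En1, 11 at Shh and 8 at Pitx1. The 7 looped genes had 6 to 13.

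The CpG content around the first TSS was high for most of the 10 genes, with Shh and Pitx1 below the median of looped genes. The observed over expected CpG ratio within 2 kb had a median of 0.60, with 0.37 over all protein-coding genes and 0.48 over looped ones. Sp9 had the highest ratio of the 10, 0.74, and Shh the lowest, 0.39. Genes without a loop overlapped those with one through En1 alone, which had 0.72. Pitx1 at 0.46 and Shh fell below Msx2, the lowest looped gene at 0.48. The median was 0.65 over the 7 looped genes and 0.46 over the 3 others. Lmx1b and Hand2, at 0.69 and 0.71, had only 3 and 2 tags, so a high ratio went with both high and low loop scores.

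**Figure D4:**
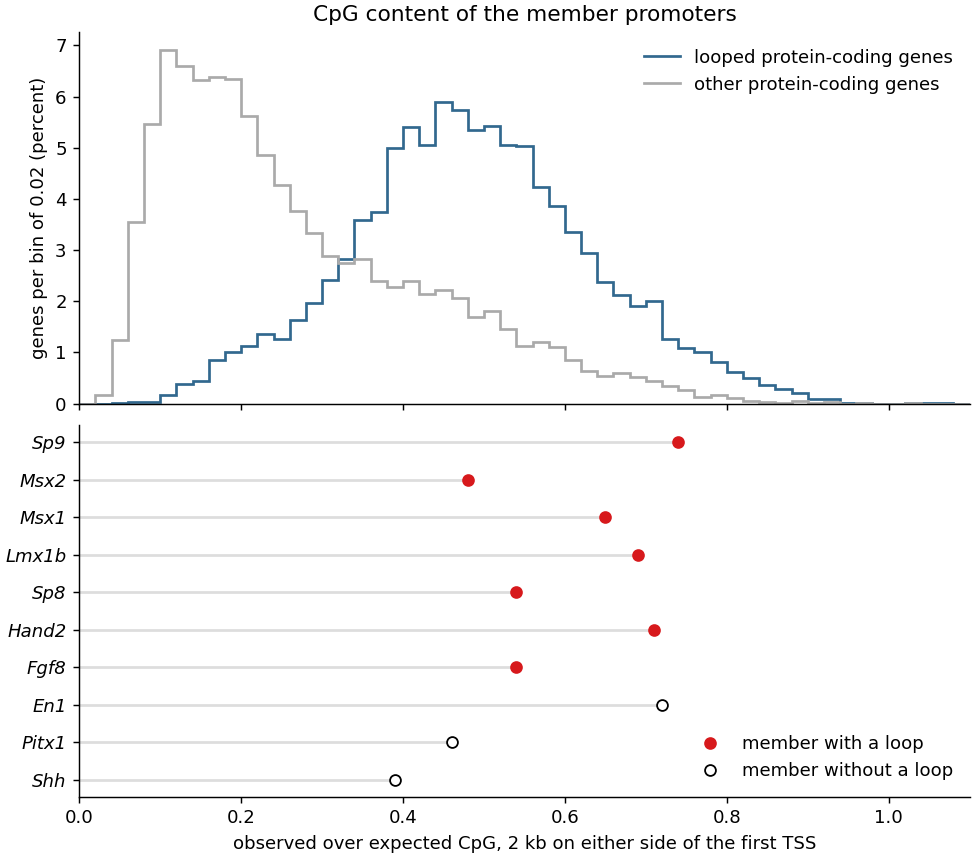
Observed over expected CpG ratio within 2 kb of the first TSS (horizontal axis in both panels), as the percent of looped and of other protein-coding genes per bin of 0.02 (upper panel) and for each of the 10 genes in order of loop score (lower panel). The genes run from 0.39 for Shh to 0.74 for Sp9. Of the 3 open points without a loop, En1 at 0.72 lies among the filled ones. Shh and Pitx1 lie below the lowest filled one, Msx2 at 0.48.

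A wider list of 70 other limb bud genes was taken from textbook knowledge with earlier results of these data known. It gave 43 looped genes (61.4%) and 16 with a score of at least 10 (22.9%). The shares over all protein-coding genes were 45.8% and 10.9%. The median was 3 tags over the 70 genes, against 0 over all protein-coding genes. Over the looped genes alone it was 6, against 4. The highest scores were those of Ptch1, the Hedgehog receptor and a target of the pathway, with 118 tags, Tbx3 with 86, Meis1 with 68, Dlx6 with 54, Lef1, a nuclear effector of Wnt signals, with 51 and Dlx5 with 40. Twist1 (22), Shox2 (21), Sall3 (20) and Irx3 (19) followed, at levels like those of Msx1 and Msx2. Among the signal genes Bmp4 scored 10 tags, Bmp7 6, Fgf10 3 and Wnt5a 2. Fgf4, Fgf9, Fgf17, Wnt3, Wnt7a, Bmp2, Rspo2 and the Wnt inhibitor Dkk1 had no loop, nor had the retinoic acid enzymes Aldh1a2 and Cyp26b1. Other genes without a loop, all for transcription factors, included Tbx4 and Tbx5, Isl1, Hand1, En2, Msx3, Sp6, Hoxd12, Alx1, Alx4, Prrx2, Lhx2, Lhx9, Tfap2b, Trp63 and Zbtb16. Ptch1 was thus joined by many tags while Shh, its ligand, was not reached. The receptor Fgfr2 scored 12 tags and Fgfr1 9, and of the FGF targets Etv4 scored 12, Dusp6 11, and Etv5 and Spry4 5 each.

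**Figure D5:**
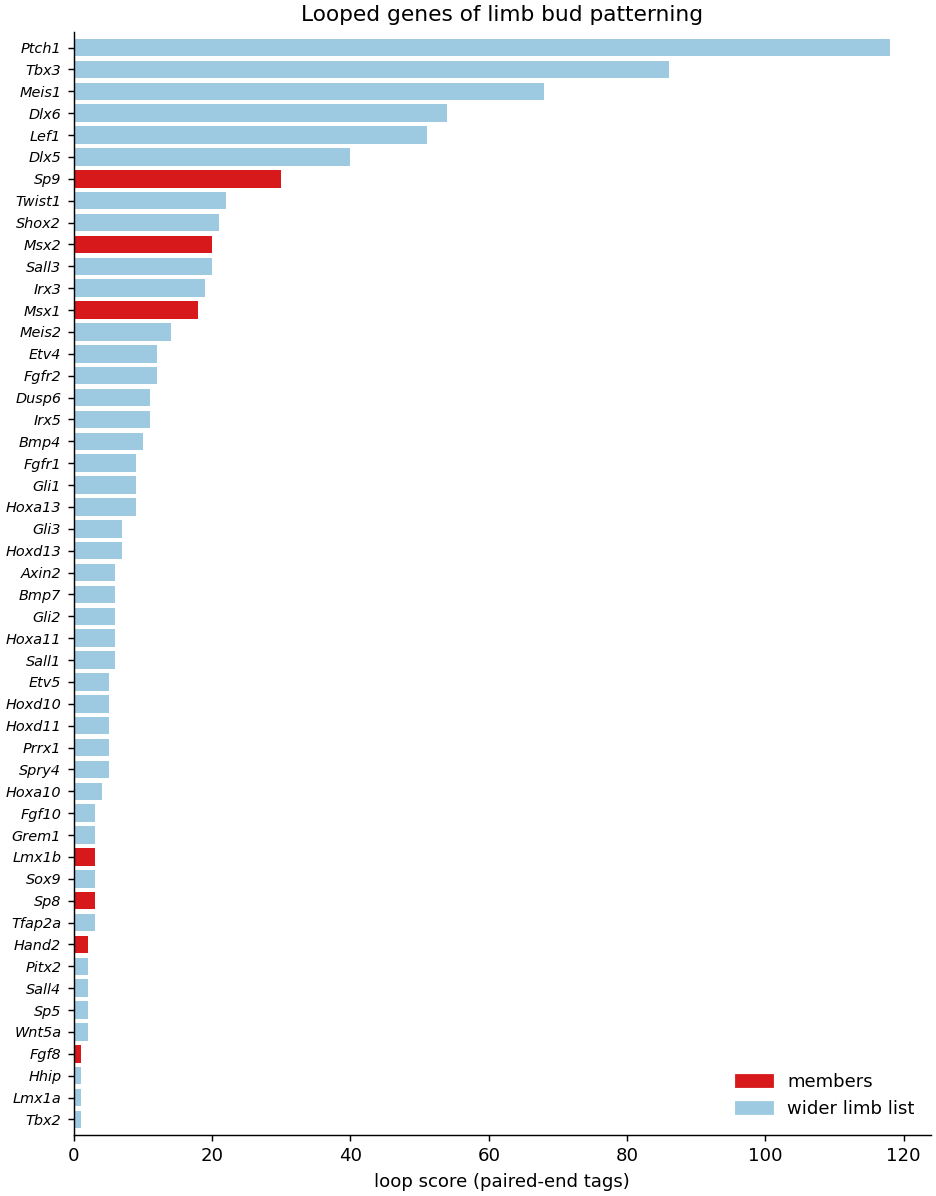
Loop score (paired-end tags, linear axis from 0) of the looped genes among the 10 patterning genes (red) and the wider list of 70 limb bud genes (blue). Ptch1 leads with 118 tags, Sp9, Msx2 and Msx1 lie between 18 and 30, and the 3 unreached genes and the 27 unreached genes of the wider list are not drawn.

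Compared with the Dlx and the Iroquois genes, families of developmental homeobox genes, the set lay between them in mean tags per loop, at 2.75 against 3.74 and 1.4. The median was 1 tag in each of these sets. Loops under 100 kb held 62.3% of the tags of the patterning genes, 66.9% of the Dlx tags and 0% of the Iroquois tags. The order of the means was therefore not separated from span. The 7 Dlx genes had 34 loops with 127 tags at 6 genes, and 55.9% of the loops rested on a single tag (39.5 to 71.1). The 6 Iroquois genes had 40 loops with 56 tags at 5 genes, 75% of them single-tag loops (59.8 to 85.8), and none was under 100 kb. Of the Iroquois distal anchors 40% reached another gene (25.6 to 56.4), and of the Dlx distal anchors 78.1% (61.2 to 89), with the patterning genes at 61.5% between them. These intervals overlap that of the patterning genes. The first part of the list held 91.3% of the Dlx tags and 28.6% of the Iroquois tags, beside 72.7% here.

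Markers of the labelled tumor were counted in the same way. Of 8 genes marking SyS, 5 were looped with 90 tags, and 45.8% of all protein-coding genes were looped. Most of these tags lay at Pdgfra with 41 and Sox2 with 39. Tle1 and Tnfrsf19 scored 4 each and Zic1 2, while Penk, Nnat and Bcl2 had no loop. The 6 immune markers had no loop, nor had the 4 fibroblast markers, Col1a1, Dcn, Lum and Pdgfrb. Pdgfra was counted with the SyS markers alone. Endothelial markers were looped at 1 of 4 genes with 3 tags, epithelial markers at 2 of 4 with 2 tags, and skeletal muscle markers at 1 of 6 with 2 tags. A loop score depends on the cells that carry the contact and on how often it is made in each, which cannot be told apart in these tumors.

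The counts depended on the threshold of the list, for Sp9 and Msx2 more than for Msx1. At an FDR under 0.01 the loop score of Sp9 dropped from 30 to 2 and that of Msx2 from 20 to 7, while Msx1 held 14 of its 18 tags. Of the 10 genes only Msx1, Msx2 and Sp9 kept a loop. With a promoter window of 5 kb, which takes in the gene body anchor, the score of Sp9 was 50, and that of Fgf8 was 4 in place of 1.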

How the data were processed

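H3K27ac HiChIP was made from 2 hSS2 tumors, and the series holds 71 samples in all, of which only the loops of these 2 were analysed here. The authors digested chromatin with MboI, used HiC-Pro for mapping to mm10 and hichipper for loop calling, and merged the tumors. For each loop the deposited values are a raw count of tags, without normalization, and an FDR, which is a p-value that the authors' caller adjusted for multiple testing, with all values under 0.05. The study's methods name that threshold, whereas a legend in its supplement names 0.01 for loops called in both tumors and then merged, and the counts below use the list as deposited. Whether tags were summed or kept apart in merging is not given in the sources used here. A loop with few tags at long distance can enter such a list where a short loop with more tags cannot, since the caller weighs tags against distance.

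Anchors were converted to positions that start at 1 and set against the TSSs of GENCODE vM21 transcripts on GRCm38, with genes taken by symbol. The window was 2 kb, the span was the distance between anchor midpoints, and a distal anchor was far when it reached no other gene's TSS. The 24244 listed loops held 41574 tags in all, which is not the sequencing depth of the libraries. The list has no replicate values, so no test was made. Shares have Wilson 95% intervals and scores exact Poisson intervals, both for counting error only. The named genes were all 10 members, the genes at the 3 distal anchors of each with the most tags, genes holding far anchors, and the 10 highest and the unreached genes of the wider limb list, of which 1 gene, like the sequence of 1 distal anchor, is not reported here. Further partners, and the signal, receptor and FGF target genes given with scores from the wider list, were named after their values were seen. Members and lists were chosen with earlier results of these data known. How loops were given to genes was tested on simulated loops. Alternatives changed the window, annotation, FDR, tag minimum, anchor size, repeated loops and part of the list. Sequences were read with pysam 0.24.0, and values were computed in Python 3.11.15 with pandas 2.3.3, numpy 2.4.6 and scipy 1.17.1.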

Additional observations from a re-analysis of the deposited data

How the results depend on the processing

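With a promoter window of 1 kb or 5 kb, RefSeq or protein-coding transcripts, anchors of 4 kb, or repeated loops counted once, 7 genes had a loop and no count or share over the 10 genes moved beyond 1.5 times or its interval. The interval was wide for distal anchors near another gene, 42.5 to 77.6. With protein-coding transcripts that share was 46.2% (12 of 26) in place of 61.5%. At an FDR under 0.01, 3 genes had a loop, with 5 loops and 23 tags, a single-tag share of 0% and 100% of the distal anchors near another gene. At an FDR under 0.001 the values were 2 genes, 4 loops, 21 tags, 0% and 100%. With at least 2 tags, 4 genes and 12 loops were left, and with at least 4 tags, 3 genes, 6 loops, 48 tags and 33.3% of the distal anchors near another gene. These settings leave out loops by construction. The first part alone gave 15 loops, and the second part alone gave 13 loops and 21 tags. Leaving out loops under 20 kb, chosen after seeing the data, gave 50 tags. En1, Shh and Pitx1 had no loop under any of the 13 settings, and the score of Sp9 ranged from 0 to 50, that of Msx2 from 5 to 20 and that of Msx1 from 1 to 18. With loops counted in place of tags, Sp9 and Msx2 had 8 each and Msx1 had 4.

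No paired analysis was possible because the list is merged and holds no values per tumor, and for the same reason leaving out each tumor in turn was not run. Depth was among the limits. Of the 28 loops of these genes 57.1% rested on a single tag, and a count of 0 allows up to 3 listed tags on a one-sided limit. Unlisted contacts may hold more, because the lowest tag count listed was higher for short loops. It was 9 among the first-part loops with a span like the 9.87 kb of Msx2. Contacts of regions without H3K27ac were not measured here.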
